A study of Mus musculus with 56 samples.

Results

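The 7 genes described here, Ccn1, Ccn2, Ankrd1, Amotl2, Ajuba, Axl and Lats2, are targets of the YAP/TEAD transcription complex. They were chosen by name, 7 of the 20314 genes in the deposited table, and their older symbols (Cyr61 for Ccn1, Ctgf for Ccn2) were matched through RefSeq. The choice was made with earlier results of these data known, so counts set beside shares of all genes are a description. The level of the 7 genes was followed in 7 β-catenin tumor cell lines, together with their response to TGFb and to Wnt3a. Each of the 7 genes had at least 1.31 CPM (the deposited unit, read counts scaled to the size of each library) in every sample, so none was lost to the filter on low values.

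Poly(A) RNA was sequenced from cells grown out of mammary tumors of MMTV-PyMT mice (FVB/N), in which the polyoma middle T oncogene is driven by the mouse mammary tumor virus promoter. The line fl/fl has both β-catenin alleles floxed and served as the wild type. In D164A/fl, ΔC/fl and dm/fl a mutant β-catenin allele stands opposite a floxed allele. In D164A/-, ΔC/- and dm/- that floxed allele was deleted with adenoviral Cre carrying GFP, followed by sorting for GFP, so the mutant allele is the only allele left. D164A is a point mutation that keeps β-catenin from binding its coactivators Bcl9 and Bcl9L, and the labels do not describe the ΔC and dm alleles further. No deleted counterpart of fl/fl is in the series. All lines grew in the same medium with serum. In the Wnt3a experiment the dose was 100 ng/ml over 3 days, and in the TGFb experiment it was 2 ng/ml TGFb over 4 days. Untreated cells of each experiment were kept for as long. This gives 4 conditions per line, 28 conditions and 56 samples, 2 per condition. The series calls the samples of a condition biological duplicates and does not say whether they came from separate cultures or separate lines, so p-values measure only the spread between these samples, which may be technical. Line here means all samples of a genotype, and genotype and line cannot be told apart. Samples held 22.4 to 33.7 M reads in genes (median 26.8 M), and 3 reads correspond to 0.0917 to 0.146 CPM, which covers counting error only.

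In the Hippo pathway, the kinases Stk3 and Stk4 activate Lats1 and Lats2, which phosphorylate the coactivators YAP and TAZ and hold them in the cytoplasm. Unphosphorylated YAP and TAZ enter the nucleus, bind TEAD factors and switch on target genes. In mammary epithelium and other epithelia the pathway is known for responding to cell density, matrix stiffness and cell shape. Among the targets, Ccn1 and Ccn2 are secreted proteins of the matrix, Ankrd1 is an ankyrin repeat protein found in the nucleus and in sarcomeres, and Axl is a receptor tyrosine kinase for Gas6. Amotl2, an angiomotin family protein of cell junctions, Ajuba, a LIM domain protein, and Lats2 itself act back on the pathway.

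Samples of a condition were alike in most cases, with a correlation of log2(CPM + 1) over genes between 0.944 and 0.995 in 26 conditions and a median of 0.981 over all 28. The samples of dm/fl -Wnt3a stood apart from each other (0.833), as did those of dm/- +Wnt3a (0.896). In both conditions the deviation of a gene from its mean over all samples followed the GC content of the gene, with Spearman rho over genes of 0.8 and -0.41 in the dm/fl -Wnt3a samples and -0.52 and 0.71 in the dm/- +Wnt3a samples. Other samples had such a trend too, with -0.54 and -0.62 in fl/fl -Wnt3a, -0.46 and 0.61 in ΔC/fl -Wnt3a, and -0.5 and -0.43 in D164A/- -TGFb, so it does not mark these 2 conditions alone. Calls in the responses of dm/fl and dm/- to Wnt3a, and between these lines in that experiment, are given with and without the 4 samples. Other results over all lines of that experiment include them.

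RefSeq promoters of GRCm38.p6, each running from 250 bases before to 50 bases after a start of transcription, were found for 6 of the 7 genes (7 promoters, as Lats2 has 2 starts). Ccn2 is not in the promoter table. Because these genes share a transcription complex and several moved together, their promoters were searched on both strands for the letters GGAATG (TEAD), TGANTCA (AP-1), CAGAC (SMAD) and CTTTGA (TCF/LEF). The TEAD letters stood in a promoter of 6 of 6 genes, against 14.7% of all 32851 promoters of this length. The SMAD letters stood in 5 of 6 genes, against 49.6% of all promoters. The TCF/LEF letters stood in Amotl2 alone, against 16.0%, and the AP-1 letters in none of the 6, against 7.81%. A match is a description of the letters and not a binding site. The genes were chosen as TEAD targets, so TEAD letters in their promoters say nothing about their levels here. The counts for the 6 are of genes with a match at any start, while the shares are of single promoters. The promoters of Ccn1 (chr3:145649936-145650235, minus strand), Ankrd1 (chr19:36119795-36120094, minus strand), Ajuba (chr14:54577612-54577911, minus strand) and Lats2 at its first start (chr14:57746074-57746373, minus strand) are shown, since the calls with TGFb described further on include these genes. Capitals mark TEAD letters (GGAATG, or CATTCC for the opposite strand) and SMAD letters (CAGAC or GTCTG).
Ccn1: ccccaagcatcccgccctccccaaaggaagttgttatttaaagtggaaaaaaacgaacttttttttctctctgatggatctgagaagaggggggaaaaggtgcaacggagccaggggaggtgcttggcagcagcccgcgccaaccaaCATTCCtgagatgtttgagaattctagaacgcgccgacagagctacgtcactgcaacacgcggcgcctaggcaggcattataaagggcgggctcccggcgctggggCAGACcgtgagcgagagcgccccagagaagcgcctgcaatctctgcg
Ankrd1: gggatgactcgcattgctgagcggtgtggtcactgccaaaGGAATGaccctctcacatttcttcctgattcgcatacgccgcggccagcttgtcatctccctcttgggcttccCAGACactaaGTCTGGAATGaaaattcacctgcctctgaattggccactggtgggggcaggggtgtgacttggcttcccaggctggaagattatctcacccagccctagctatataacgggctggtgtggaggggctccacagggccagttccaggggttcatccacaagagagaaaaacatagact
Ajuba: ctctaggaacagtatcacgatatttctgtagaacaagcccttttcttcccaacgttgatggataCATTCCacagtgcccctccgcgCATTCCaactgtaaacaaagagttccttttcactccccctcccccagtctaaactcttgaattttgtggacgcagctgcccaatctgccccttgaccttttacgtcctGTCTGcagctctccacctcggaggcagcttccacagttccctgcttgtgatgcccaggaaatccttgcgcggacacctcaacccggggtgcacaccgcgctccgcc
Lats2: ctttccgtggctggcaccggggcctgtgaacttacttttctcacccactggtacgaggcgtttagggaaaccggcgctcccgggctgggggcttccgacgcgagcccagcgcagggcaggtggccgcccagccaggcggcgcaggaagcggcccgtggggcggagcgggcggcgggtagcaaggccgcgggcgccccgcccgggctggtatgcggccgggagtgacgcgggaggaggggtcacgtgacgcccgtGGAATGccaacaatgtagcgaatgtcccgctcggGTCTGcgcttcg
In Ccn1 the TEAD match begins 103 bases before the start and the SMAD match 3 bases after it. Ankrd1 has TEAD matches at 210 and 123 bases before the start, and the second of these shares its first base with a SMAD match on the opposite strand that begins at 127 bases. Another SMAD match of Ankrd1 lies at 137 bases. Ajuba has a pair of TEAD matches, the farther at 186 bases before the start, and a SMAD match at 56 bases. The Lats2 matches lie 4 bases (TEAD) and 38 bases (SMAD) after its first start, and its second start had none. Each of the 4 promoters printed holds both TEAD and SMAD letters. In Amotl2 the TEAD match lies 65 bases and the TCF/LEF match 97 bases before the start. The Axl TEAD match lies 233 bases before the start, with SMAD matches 222 bases before it and 28 bases after it.

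The label of mammary tumor cells was checked against marker genes. The 9 luminal markers summed to between 1860.4 and 15764 CPM per sample (median 3822, with Krt7 the most abundant), and Krt19 was under 1 CPM in every sample of 6 lines and at 24.3 to 55 CPM in fl/fl. The 8 basal markers summed to between 8.78 and 3936 CPM, with Krt14 the most abundant, and Myh11 and Cnn1 were under 1 CPM everywhere. Of the luminal keratins, Krt7, Krt8 and Krt18 were at 139.8 CPM or more in every sample. The 8 fibroblast markers summed to 5.58 to 779 CPM, with the highest sums in ΔC/fl (79.1 to 779, with Pdgfrb the most abundant) and dm/fl (72 to 554), while Lum and Thy1 were under 1 CPM everywhere. The 6 leukocyte markers summed to 1.27 to 533 CPM, with the highest sums in dm/fl (292 to 533, most of it Csf1r), the lowest in D164A/- (1.27 to 6.86), and Ptprc, Adgre1, Itgam and Cd3e under 1 CPM everywhere. The 5 endothelial markers reached at most 35.2 CPM, in dm/fl with TGFb, where this was nearly all Cdh5, and Kdr, Tek and Emcn were under 1 CPM everywhere. The authors cleared fibroblasts from the cultures by selective trypsin treatment and describe the remaining cells as epithelial. As the RNA is from bulk samples, fewer cells of a type and less RNA per cell cannot be told apart, and the part of these markers in the levels of the 7 genes was not tested.

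Known responders were read alongside. Smad7, a feedback inhibitor of TGFb signaling, was called higher with TGFb in 6 of 7 lines (log2 differences of 1.07 to 1.67, and 0.67 in ΔC/fl, adjusted p = 0.243), where called means an adjusted p of at most 0.05 with an absolute log2 difference of at least 1. Pmepa1, another TGFb target, was called in 2 of 7 lines, D164A/fl (1.96) and dm/- (1.7), with 0.65 to 1.21 in the others. Axin2, a feedback gene of Wnt signaling, was called higher with Wnt3a in 6 of 7 lines (log2 differences of 2.84 to 5.98). In dm/- Axin2 read 0 and 0 CPM untreated and 0 and 0.0791 CPM with Wnt3a, at or under the floor of 3 reads. Nkd1, a further Wnt target, was too low in all samples to be tested. Ctnnb1, which encodes β-catenin, lay between 531 and 3188 CPM. In limma it was called in none of the 7 lines with TGFb and in none with Wnt3a, with 1 line at an unadjusted p under 0.05 for each treatment and 0 calls by edgeR. With Wnt3a that line was D164A/fl, where Ctnnb1 passed the adjusted p (0.0324) at a log2 difference of 0.83, below the minimum fold.

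Per kilobase of exon, Axl had the highest median of the 7 genes over the 56 samples, 163.7 CPM per kb, and Lats2 the lowest, 7.27 CPM per kb. Between them lay Ccn1 at 109, Ccn2 at 76.4, Ajuba at 54.3, Ankrd1 at 42 and Amotl2 at 29.1 CPM per kb. Single samples departed from this order, as Axl ran from 0.261 to 497 CPM per kb and Ccn2 reached 1878 CPM per kb. The untreated level of all 7 genes differed between lines in both experiments (7 of 7 by the F test at an adjusted p of at most 0.05, against 62.4% of all genes in the TGFb experiment and 57.3% in the Wnt3a experiment). Axl spanned the widest range, with its highest line mean 462 times its lowest in the TGFb experiment and 82.1 times in the Wnt3a experiment. Its lowest means, both in D164A/-, are of unequal samples (1.31 and 3.85 CPM, and 10.6 and 34.5 CPM), so these ratios depend on single samples. Ccn1 spanned the narrowest, 3.29 and 3.57 times. Of the 21 pairs of lines, the number called in the TGFb and the Wnt3a experiment was 11 and 12 for Axl, 11 and 11 for Ankrd1, 12 and 7 for Ccn2, 10 and 10 for Ajuba, 7 and 10 for Lats2, 6 and 7 for Amotl2, and 7 and 3 for Ccn1, against 18.9% and 16.7% of all combinations of a gene and a pair. D164A/- held the lowest mean of 6 of the 7 genes in the TGFb experiment, all but Ccn1. Both of its untreated samples there shared a GC trend of like sign. After removal of the GC trend the F test passed for 7 of 7 genes, with Amotl2 at an adjusted p of 0.0143 (3.33e-05 before). Of all genes 10595 passed after the removal, against 8580 before. The F test asks only whether any lines differ, so the part of the GC trend in the low place of D164A/- was not tested.

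Axl (Entrez 26362), the receptor, separated the lines most sharply. In untreated cells of the TGFb experiment its samples were at 469.7 and 619.8 CPM in fl/fl, 184 and 158 in D164A/fl, 1.31 and 3.85 in D164A/-, 1034 and 1256 in ΔC/fl, 683 and 831 in ΔC/-, 1251 and 1134 in dm/fl, and 1031 and 996 in dm/-. Those of the Wnt3a experiment were at 637 and 786 CPM in fl/fl, 109.7 and 113 in D164A/fl, 10.6 and 34.5 in D164A/-, 1707 and 1995 in ΔC/fl, 926 and 1848 in ΔC/-, 2449 and 1211 in dm/fl, and 1139.8 and 1349.8 in dm/-. The samples of D164A/- lay below all others in both experiments, those of D164A/fl came next, those of fl/fl after that, and the ΔC and dm lines were highest. By mean log level the order in the TGFb experiment was dm/fl, ΔC/fl, dm/-, ΔC/-, fl/fl, D164A/fl and D164A/-, and the neighbours differed only at the steps from fl/fl to D164A/fl (log2 1.66, adjusted p = 0.0164) and from D164A/fl to D164A/- (5.68, adjusted p = 1.78e-10). The step from fl/fl to D164A/fl lost its call without fl/fl -TGFb replicate 2 (1.46, adjusted p = 0.15), D164A/fl -TGFb replicate 1 (1.77, 0.0659) or D164A/fl -TGFb replicate 2 (1.55, 0.102). A sample left alone in its condition was there assumed to vary like the samples of the other conditions. The Wnt3a experiment had the order ΔC/fl, dm/fl, ΔC/-, dm/-, fl/fl, D164A/fl and D164A/-, with called steps at the same places (2.66, adjusted p = 0.000113, and 2.47, adjusted p = 0.00152). Without D164A/- -Wnt3a replicate 1 the lower of these steps was 1.66 (adjusted p = 0.204), and without replicate 2 it was 3.27.

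Ankrd1 (Entrez 107765) was highest in dm/- and fl/fl in both experiments. Untreated samples of the TGFb experiment read 228 and 362 CPM in fl/fl, 67.1 and 82.7 in D164A/fl, 1.62 and 13.7 in D164A/-, 150.3 and 141 in ΔC/fl, 33.7 and 50.4 in ΔC/-, 102 and 128 in dm/fl, and 318 and 354 in dm/-. Those of the Wnt3a experiment read 445 and 374 CPM in fl/fl, 105 and 34.3 in D164A/fl, 24.7 and 32.8 in D164A/-, 104 and 86.5 in ΔC/fl, 67.4 and 38.6 in ΔC/-, 85.1 and 129 in dm/fl, and 578 and 294 in dm/-. The samples of fl/fl and dm/- overlapped and lay above those of every other line in both experiments, and those of D164A/- lay below those of every other line. In the TGFb experiment the order was dm/-, fl/fl, ΔC/fl, dm/fl, D164A/fl, ΔC/- and D164A/-, with a single called step, the last (2.77, adjusted p = 0.00072). That step was 1.53 (adjusted p = 0.106) without D164A/- -TGFb replicate 1 and 4.01 without replicate 2. For the Wnt3a experiment it was dm/-, fl/fl, dm/fl, ΔC/fl, D164A/fl, ΔC/- and D164A/-, with a single called step from fl/fl to dm/fl (1.95, adjusted p = 0.0165). It lost its call without fl/fl -Wnt3a replicate 1 (1.82, adjusted p = 0.081), fl/fl -Wnt3a replicate 2 (2.07, 0.0572) or dm/fl -Wnt3a replicate 1 (1.65, 0.215).

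Ccn2 (Entrez 14219, chr10:24595442-24598683, plus strand) was highest in the ΔC lines and fl/fl and lowest in D164A/-. Its untreated samples in the TGFb experiment were at 355 and 187 CPM in fl/fl, 50.7 and 87.9 in D164A/fl, 23.3 and 42.7 in D164A/-, 903 and 388 in ΔC/fl, 420.5 and 345 in ΔC/-, 210.4 and 215 in dm/fl, and 73.3 and 79.2 in dm/-. The Wnt3a experiment gave 241 and 201 CPM in fl/fl, 129 and 121 in D164A/fl, 36.6 and 33.3 in D164A/-, 276 and 266 in ΔC/fl, 318 and 136 in ΔC/-, 160.2 and 153 in dm/fl, and 155 and 66.3 in dm/-. The samples of D164A/- lay below those of every other line in both experiments, while fl/fl, ΔC/- and dm/fl overlapped or lay close together. In the TGFb experiment the order was ΔC/fl, ΔC/-, fl/fl, dm/fl, dm/-, D164A/fl and D164A/-, and only the step from dm/fl to dm/- was called (1.47, adjusted p = 0.0314), which is the comparison of deleted with floxed cells taken up further on. For the Wnt3a experiment it was ΔC/fl, fl/fl, ΔC/-, dm/fl, D164A/fl, dm/- and D164A/-, and only the last step was called (1.51, adjusted p = 0.0225). It was 0.91 (adjusted p = 0.336) without dm/- -Wnt3a replicate 1, 1.58 (0.0844) without D164A/- -Wnt3a replicate 1, 1.45 (0.0948) without D164A/- -Wnt3a replicate 2, and 2.12 without dm/- -Wnt3a replicate 2.

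Ccn1 (Entrez 16007) varied least between lines. Its untreated samples in the TGFb experiment were at 219 and 497 CPM in fl/fl, 188 and 379.7 in D164A/fl, 81.3 and 164.4 in D164A/-, 217 and 199 in ΔC/fl, 100.4 and 124 in ΔC/-, 269.8 and 279 in dm/fl, and 91 and 127 in dm/-. Its samples in the Wnt3a experiment were at 429.5 and 519 CPM in fl/fl, 179 and 152 in D164A/fl, 165 and 224 in D164A/-, 184 and 222 in ΔC/fl, 105 and 169 in ΔC/-, 391 and 228 in dm/fl, and 153 and 112 in dm/-. In the TGFb experiment the samples of the 3 deleted lines lay below those of the 4 lines with a floxed allele, without overlap. Only the samples of fl/fl in the Wnt3a experiment stood above all others. The order was fl/fl, dm/fl, D164A/fl, ΔC/fl, D164A/-, ΔC/- and dm/- in the TGFb experiment and fl/fl, dm/fl, ΔC/fl, D164A/-, D164A/fl, ΔC/- and dm/- in the Wnt3a experiment. No neighbours in it were called in either experiment, and the widest step in the TGFb experiment, from ΔC/fl to D164A/-, was 0.84 (adjusted p = 0.217). The F test of the Wnt3a experiment (adjusted p = 0.0129) no longer passed without fl/fl -Wnt3a replicate 2 (adjusted p = 0.0929).

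All 3 genes that act back on the pathway had their lowest untreated mean in a D164A line in both experiments. For Ajuba and Lats2 both D164A lines lay below all other lines in each experiment, and for Amotl2 the means did so in the Wnt3a experiment alone. Ajuba (Entrez 16475) read 269 and 273 CPM in untreated fl/fl of the TGFb experiment, 64.9 and 105 in D164A/fl, 23.6 and 44.9 in D164A/-, 224 and 257 in ΔC/fl, 234 and 258 in ΔC/-, 135 and 165 in dm/fl, and 122 and 144 in dm/-. It read, in the Wnt3a experiment, 270 and 273 CPM in fl/fl, 79.1 and 84.4 in D164A/fl, 51.7 and 65.3 in D164A/-, 256 and 257 in ΔC/fl, 228 and 226 in ΔC/-, 298 and 181 in dm/fl, and 185 and 165 in dm/-. Both D164A lines lay below the other 5 lines without overlap in both experiments, and D164A/- lay below D164A/fl. The order was fl/fl, ΔC/-, ΔC/fl, dm/fl, dm/-, D164A/fl and D164A/- in the TGFb experiment, where D164A/fl and D164A/- were called neighbours (1.31, adjusted p = 0.000609). That step was short of a call without D164A/- -TGFb replicate 1 (0.86, adjusted p = 0.0763) or D164A/fl -TGFb replicate 2 (0.97, adjusted p = 0.0422). The other experiment had the order fl/fl, ΔC/fl, dm/fl, ΔC/-, dm/-, D164A/fl and D164A/-, where dm/- and D164A/fl were called neighbours (1.09, adjusted p = 0.00351).

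Lats2 (Entrez 50523) followed a like order. Its untreated samples in the TGFb experiment were at 75.1 and 66.4 CPM in fl/fl, 32.6 and 31 in D164A/fl, 13.2 and 15.3 in D164A/-, 65.6 and 58.2 in ΔC/fl, 55.1 and 60.9 in ΔC/-, 53.4 and 50.3 in dm/fl, and 52.5 and 47.4 in dm/-. The Wnt3a experiment gave 77.9 and 73.5 CPM in fl/fl, 18.9 and 15.1 in D164A/fl, 18.6 and 16.7 in D164A/-, 55 and 49.6 in ΔC/fl, 59.9 and 46.7 in ΔC/-, 76 and 44.4 in dm/fl, and 56.2 and 42.5 in dm/-. Both D164A lines lay below the other 5 without overlap, and in the Wnt3a experiment they overlapped each other. In the TGFb experiment the order was fl/fl, ΔC/fl, ΔC/-, dm/fl, dm/-, D164A/fl and D164A/-, with a called last step (1.11, adjusted p = 0.000574) and a step from dm/- to D164A/fl below the minimum fold (0.63, adjusted p = 0.0443). The order in the Wnt3a experiment was fl/fl, dm/fl, ΔC/-, ΔC/fl, dm/-, D164A/- and D164A/fl, with a called step from dm/- to D164A/- (1.42, adjusted p = 1.34e-05).

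Amotl2 (Entrez 56332) was low in D164A/- alone in the TGFb experiment. Its untreated samples there were at 322 and 216 CPM in fl/fl, 171 and 249 in D164A/fl, 36 and 51.2 in D164A/-, 205 and 178 in ΔC/fl, 177 and 252 in ΔC/-, 225 and 197 in dm/fl, and 260 and 242 in dm/-. Untreated samples of the Wnt3a experiment were at 225 and 155 CPM in fl/fl, 76.6 and 81.9 in D164A/fl, 54.5 and 62.9 in D164A/-, 101 and 157 in ΔC/fl, 178 and 82.6 in ΔC/-, 552 and 142 in dm/fl, and 213 and 176 in dm/-. In the TGFb experiment the samples of 6 lines lay between 171 and 322 CPM and those of D164A/- below them all. The order there was fl/fl, dm/-, ΔC/-, dm/fl, D164A/fl, ΔC/fl and D164A/-, with a single called step, the last (2.13, adjusted p = 0.000178). Its order in the Wnt3a experiment was dm/fl, dm/-, fl/fl, ΔC/fl, ΔC/-, D164A/fl and D164A/-, and samples of neighbouring lines lay close together except for those of dm/fl. No neighbours of Amotl2 were called in the Wnt3a experiment, and its F test there (adjusted p = 0.000417) did not pass when only the compared samples were fitted (adjusted p = 0.115). The highest untreated value, 552 CPM, belongs to dm/fl -Wnt3a replicate 1, a sample that stood apart.

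**Figure D1:**
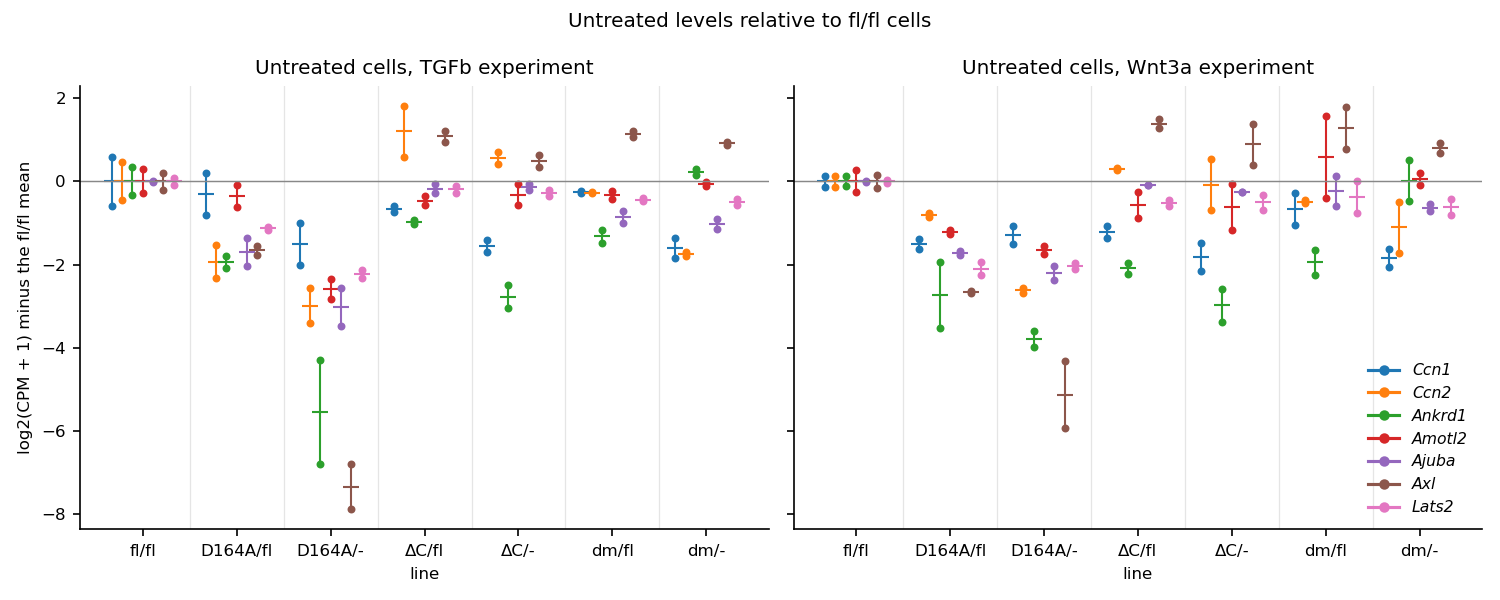
Untreated level of each of the 7 genes in each line, as log2(CPM + 1) minus the mean of fl/fl, with the TGFb experiment and the Wnt3a experiment in separate panels; points are samples and dashes are means. In the TGFb experiment D164A/- is lowest for every gene but Ccn1, and its Axl samples (1.31 and 3.85 CPM) lie farthest from fl/fl.

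With TGFb, Ccn2 rose in all 7 lines, by 3.2-fold in dm/fl to 16.5-fold in D164A/-, and the other genes rose in few lines or none. Ccn1 rose in the ΔC lines, Ankrd1 in ΔC/fl, and Ajuba and Lats2 in D164A/-. Amotl2 and Axl were called in no line. In all, 12 of the 49 combinations of a gene and a line were called higher, against 3.11% of all such combinations, and 0 of 49 were called lower, against 3.24%. In limma 0 of 49 were lower at an unadjusted p under 0.05, and edgeR called 0 lower. By line, the 7 genes gave 1 call in fl/fl (3.31% of all genes called higher), 1 in D164A/fl (2.5%), 3 in D164A/- (2.7%), 3 in ΔC/fl (3.24%), 2 in ΔC/- (2.86%), 1 in dm/fl (3.45%) and 1 in dm/- (3.68%). Fold changes come from log2(CPM + 1), which understates the change of genes with low values. Cell type markers were called with TGFb in every line, including those where Ccn2 alone of the 7 genes was called. In fl/fl, D164A/fl, dm/fl and dm/- Col1a1 was called higher, with further marker calls in fl/fl, dm/fl and dm/-. In ΔC/fl Cdh1, Epcam, Cldn7, Krt14, Trp63 and Pdgfra were called lower and Acta2, Col1a1 and Col3a1 higher. In D164A/- Krt5 and Trp63 were called lower and Col1a1 higher, and in ΔC/- Cd68 lower and Csf1r higher. The part of these markers in the rises of the 7 genes was not tested.

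Ccn2, the secreted matrix protein, gave the largest response in every line outside the ΔC lines. In ΔC/fl Ankrd1 rose more (log2 2.53 against 2.08), and in ΔC/- Ccn1 did (2.35 against 1.92). In fl/fl Ccn2 went from 355 and 187 CPM untreated to 3485 and 2239 with TGFb. In D164A/fl the samples moved from 50.7 and 87.9 to 1083 and 977 CPM, and in D164A/- from 23.3 and 42.7 to 469 and 616 CPM. In these 3 lines each treated sample was far above each untreated sample. The log2 differences were 3.43 in fl/fl (adjusted p = 6.63e-06), 3.92 in D164A/fl (adjusted p = 2.88e-06) and 4.05 in D164A/- (adjusted p = 5.4e-07), each with an SE of 0.5 and n of 2 against 2 in limma. They stayed called without any of their samples.

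Ccn2 responses were smaller in the ΔC and dm lines. In ΔC/fl the samples read 903 and 388 CPM untreated and 5373 and 1162 with TGFb, and in ΔC/- they read 420.5 and 345 against 1466 and 1423. In dm/fl they read 210.4 and 215 CPM untreated and 1033 and 449 with TGFb, and in dm/- 73.3 and 79.2 against 279 and 388. Treated and untreated samples did not overlap in any of these lines, but ΔC/fl +TGFb replicate 1 and dm/fl +TGFb replicate 1 were far above their partners. The log2 differences were 2.08 in ΔC/fl (adjusted p = 0.00429), 1.92 in ΔC/- (0.0102), 1.68 in dm/fl (0.0194) and 2.1 in dm/- (0.00511), with an SE of 0.5.

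These Ccn2 calls were lost without single samples, and where that happened in ΔC/- and dm/- the difference was still 1.78 to 2.06. In ΔC/fl the difference was 0.97 (adjusted p = 0.455) without +TGFb replicate 1 and 1.47 (0.182) without -TGFb replicate 2, and it was called at 2.69 without -TGFb replicate 1 and at 3.18 without +TGFb replicate 2. With only the compared samples fitted, ΔC/fl had an adjusted p of 0.178. In ΔC/- it was 2.06 (0.0533) without -TGFb replicate 1, 1.78 (0.109) without -TGFb replicate 2, 1.9 (0.0697) without +TGFb replicate 1 and 1.94 (0.0748) without +TGFb replicate 2. In dm/fl it was 1.08 (0.404) without +TGFb replicate 1, 1.66 (0.12) without -TGFb replicate 1 and 1.69 (0.0901) without -TGFb replicate 2, and it was called at 2.28 without +TGFb replicate 2. In dm/- it was 2.04 (0.0548) without -TGFb replicate 1 and 1.86 (0.0897) without +TGFb replicate 2.

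The Ccn2 response differed between lines by the F test (adjusted p = 0.0215, 1 of 2 of the 7 genes to pass, against 18.3% of all genes). The other gene was Lats2 (adjusted p = 0.0136). The Ccn2 test rose above the threshold without D164A/fl -TGFb replicate 1, D164A/- -TGFb replicate 1 or D164A/- +TGFb replicate 2 (highest adjusted p = 0.064, without D164A/- -TGFb replicate 1), and edgeR gave an adjusted p of 0.0757. The Lats2 test did so without D164A/- -TGFb replicate 1 (adjusted p = 0.118), D164A/- +TGFb replicate 1 or D164A/- +TGFb replicate 2. For the other 5 genes the adjusted p was 0.113 for Ccn1, 0.134 for Ankrd1, 0.0924 for Ajuba, 0.833 for Axl and 1 for Amotl2. With same-numbered samples fitted as a block, the F test also passed for Ccn1 (adjusted p = 0.0102), Ankrd1 (0.000348), Ajuba (0.0122) and Axl (0.0144). Amotl2 did not pass with the block (0.419). Of all genes 4775 passed with the block, against 2515 without it. The numbers were not taken as pairs, for the reason given with the processing.

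Ccn1, the other matrix protein, rose in both ΔC lines. In ΔC/fl it read 217 and 199 CPM untreated and 1089 and 504 with TGFb. In ΔC/- it read 100.4 and 124 CPM untreated and 458 and 714 with TGFb. All treated samples lay above all untreated samples in both lines. The log2 differences were 1.83 in ΔC/fl (adjusted p = 0.00974) and 2.35 in ΔC/- (adjusted p = 0.00108), with an SE of 0.48. The ΔC/fl call was lost without +TGFb replicate 1 (1.27, adjusted p = 0.306), -TGFb replicate 1 (1.89, 0.0512) or -TGFb replicate 2 (1.76, 0.0804), and the ΔC/- call held without any of its samples.

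In the other lines Ccn1 did not pass the test. With TGFb it read 729 and 1016 CPM in fl/fl and 267 and 357 in D164A/-, above their untreated samples without overlap (log2 differences of 1.38 and 1.41, adjusted p = 0.0837 and 0.0975). It read 189 and 410 CPM in D164A/fl (0.06), 544 and 261 in dm/fl (0.46) and 213 and 136 in dm/- (0.66). In D164A/fl and dm/fl the treated and untreated samples overlapped, and in dm/- they did not.

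Ankrd1 rose with TGFb in ΔC/fl. It read 150.3 and 141 CPM there untreated and 1033 and 695 with TGFb, far apart. The log2 difference was 2.53 with an SE of 0.64 (adjusted p = 0.00665). Without ΔC/fl +TGFb replicate 1 it was 2.25 (adjusted p = 0.114) and without ΔC/fl -TGFb replicate 2 it was 2.49 (adjusted p = 0.0574). With TGFb, Ankrd1 read 379.9 and 403 CPM in fl/fl, 63 and 99.6 in D164A/fl, 6.74 and 45.3 in D164A/-, 97.6 and 63.5 in ΔC/-, 269.9 and 217 in dm/fl, and 159 and 273 in dm/-. None of these 6 lines was called. Treated and untreated samples overlapped in the D164A lines and were apart in the others. The D164A/- difference was 1.61 (adjusted p = 0.199), and in dm/- the treated samples lay below the untreated ones (-0.68).

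Ajuba rose with TGFb in D164A/-. Its samples there were at 23.6 and 44.9 CPM untreated and at 67.6 and 104 with TGFb, without overlap (log2 1.34, SE 0.28, adjusted p = 0.00184). The difference was 0.88 (adjusted p = 0.226) without D164A/- -TGFb replicate 1, 1.03 (0.112) without D164A/- +TGFb replicate 2, and 1.16 (0.0564) after removal of the GC trend. With TGFb, Ajuba read 256 and 261 CPM in fl/fl, 85.7 and 123 in D164A/fl, 260.4 and 231 in ΔC/fl, 194 and 281 in ΔC/-, 165 and 204 in dm/fl, and 179 and 159 in dm/-. In these 6 lines the samples stayed close to the untreated ones, with differences between -0.07 and 0.35.

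Lats2 likewise rose in D164A/-. It went from 13.2 and 15.3 CPM to 37.1 and 36.2 CPM, with both pairs close together and no overlap (log2 1.31, SE 0.24, adjusted p = 0.000251). This call held without any of its samples (1.21 to 1.41). With TGFb, Lats2 read 82.5 and 72.5 CPM in fl/fl, 30.6 and 34.9 in D164A/fl, 83.3 and 75.4 in ΔC/fl, 55.7 and 60.8 in ΔC/-, 55.7 and 48 in dm/fl, and 44.2 and 40.9 in dm/-. The differences in these 6 lines lay between -0.22 and 0.35.

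Amotl2 and Axl did not pass the test in any line. Amotl2 with TGFb read 307 and 267 CPM in fl/fl, 183 and 214 in D164A/fl, 72.6 and 93.5 in D164A/-, 264 and 160 in ΔC/fl, 235 and 261 in ΔC/-, 244 and 193 in dm/fl, and 314 and 216 in dm/-. In D164A/- the treated Amotl2 samples lay above the untreated ones (0.92, adjusted p = 0.336), and in the other 6 lines the groups overlapped. Axl with TGFb read 407 and 467 CPM in fl/fl, 121 and 148 in D164A/fl, 2.42 and 7.84 in D164A/-, 1472 and 1730.4 in ΔC/fl, 765 and 1196 in ΔC/-, 1094 and 1010.5 in dm/fl, and 695 and 581 in dm/-. Treated and untreated Axl samples overlapped in D164A/- and ΔC/-, and lay apart by little in the others. Its log2 differences lay between -0.67 in dm/- and 0.72 in D164A/-.

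In D164A/- all 7 genes had a log2 difference above 0, with a median of 1.34 against 0 over all genes tested, and 6 of the 7 had an unadjusted p under 0.05, against 1682 of 13754 genes. In the other lines the median of the 7 genes was 0.13 in fl/fl (-0.03 over all genes), 0.06 in D164A/fl (0.03), 0.49 in ΔC/fl (0.02), 0.34 in ΔC/- (0), 0.3 in dm/fl (-0.02) and 0.06 in dm/- (0). In ΔC/fl all 7 genes were above 0 too, and 3 of the 7 had an unadjusted p under 0.05, against 2590 of 13754 genes.

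Averaged over the 7 lines, Ccn2 and Ccn1 were called higher with TGFb (2 of 7, against 2.68% of all genes). The deleted lines were made from cells with a floxed allele, so the lines are not independent. The mean log2 difference was 2.74 for Ccn2 (SE 0.19, adjusted p = 2.94e-13) and 1.16 for Ccn1 (SE 0.18, adjusted p = 5.8e-06). Ankrd1 (0.85, SE 0.24, adjusted p = 0.00668) and Ajuba (0.31, SE 0.11, adjusted p = 0.0256) passed the adjusted p below the minimum fold (4 of 7 higher at the adjusted p alone, against 14.6% of all genes). Lats2 was at 0.23 (adjusted p = 0.0505), Amotl2 at 0.2 (0.397) and Axl at 0.01 (0.988). None of the 7 was called lower (2.2% of all genes), none was lower at an unadjusted p under 0.05 in limma, and edgeR called 0 lower. Ankrd1 was called at 1.04 (adjusted p = 0.000429) without D164A/- +TGFb replicate 1 and at 1.03 (adjusted p = 0.000544) without D164A/- -TGFb replicate 2. Scaling to total reads in genes moved the median response of all genes from -0.02 to -0.13, turned the Axl mean to -0.13, and moved the means of Ajuba to 0.17 (adjusted p = 0.187), Lats2 to 0.09 (0.491) and Amotl2 to 0.06 (0.786). It also moved the calls among all genes from 368 higher and 303 lower to 299 higher and 399 lower.

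**Figure D2:**
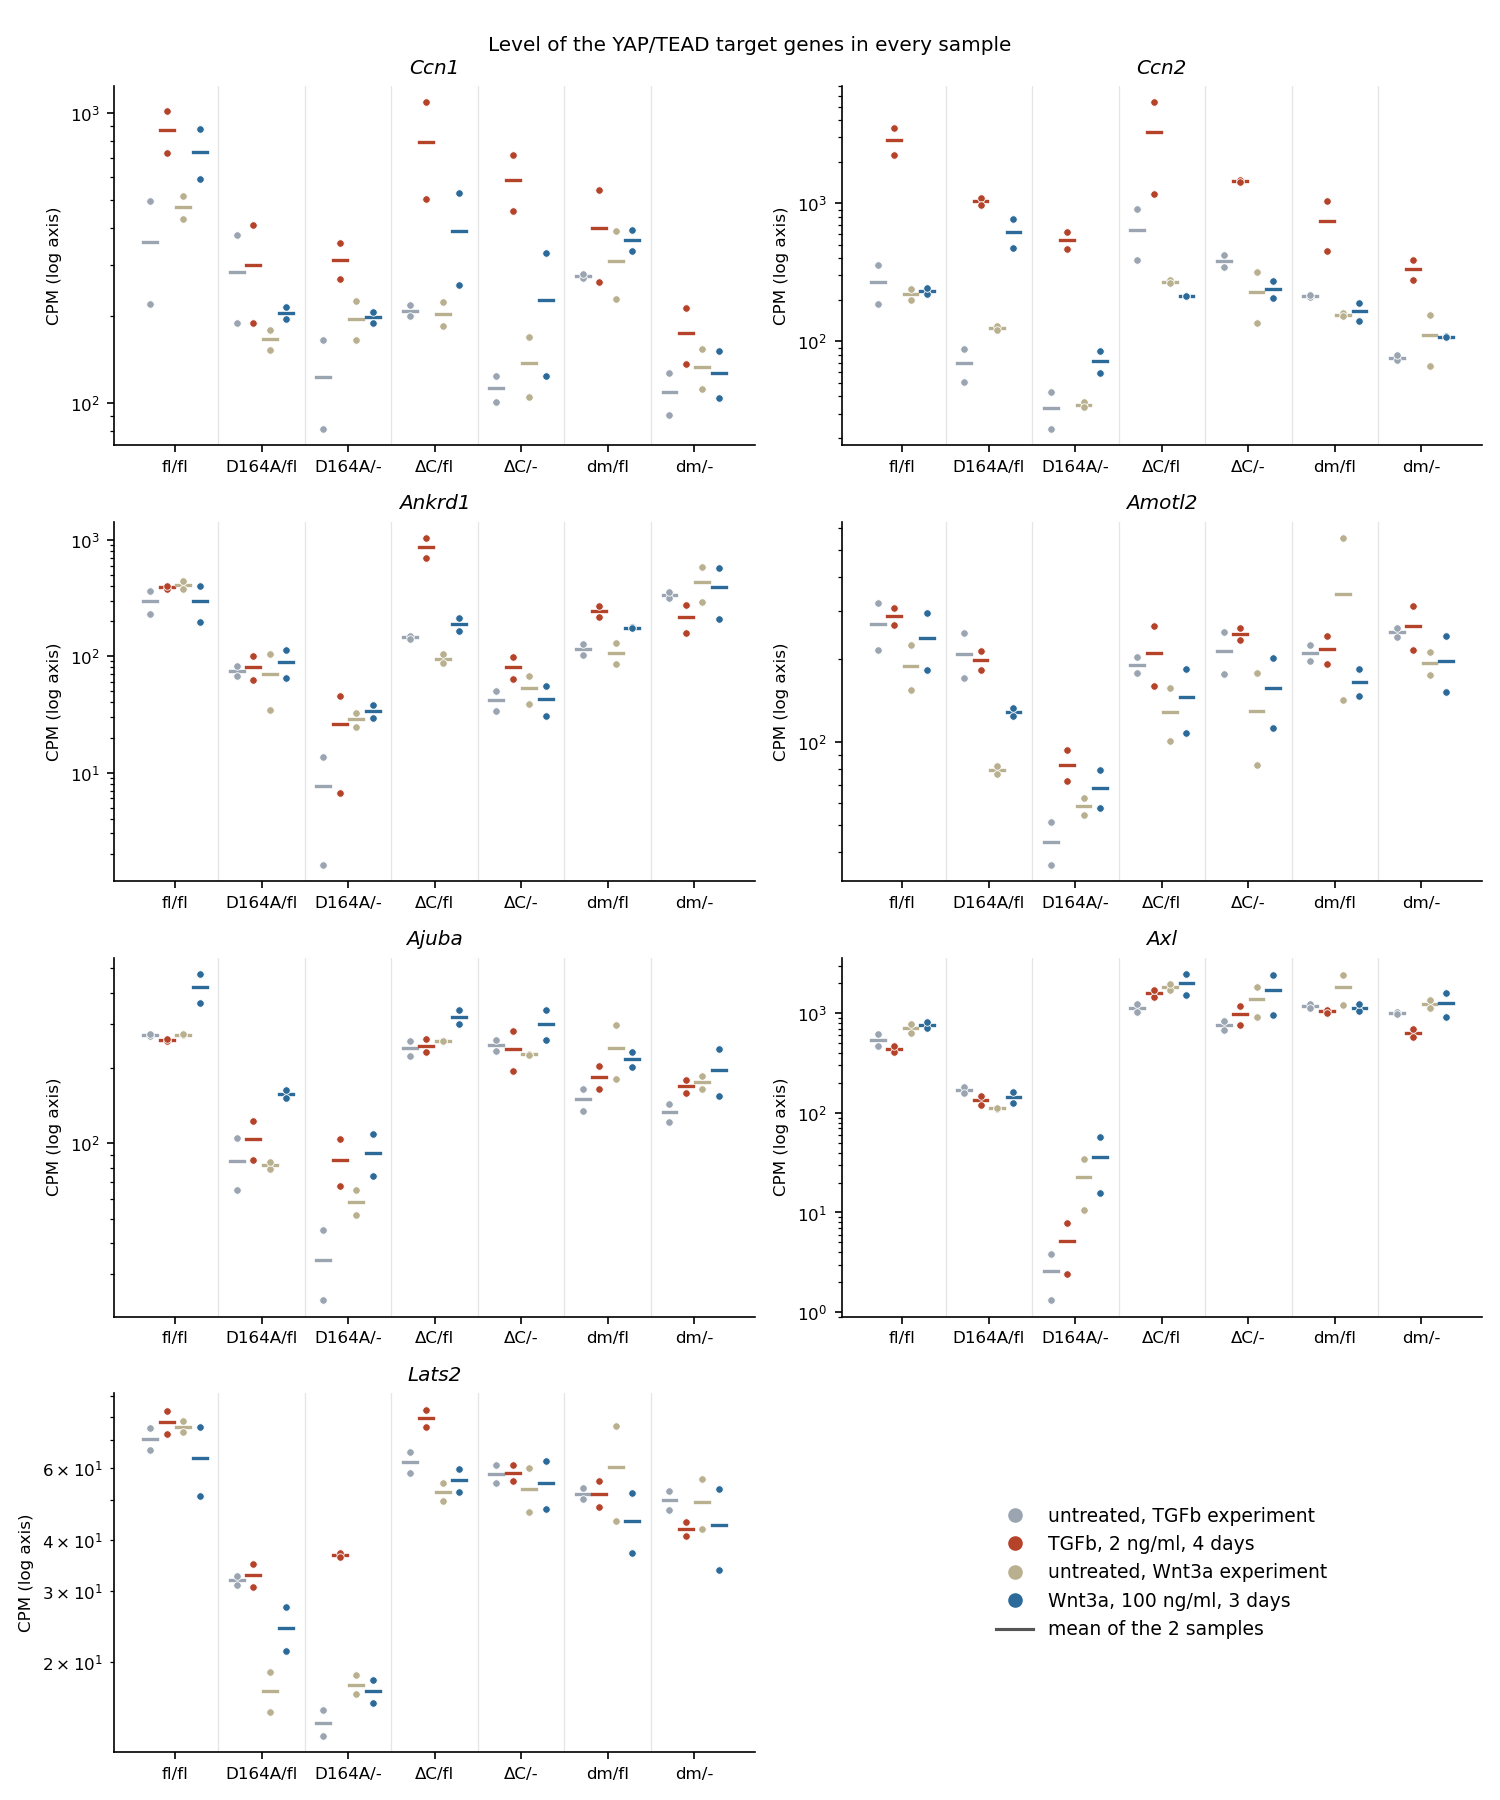
CPM of each of the 7 genes (log axis) in every sample of the 7 lines, without and with TGFb and without and with Wnt3a; points are samples and bars are means of 2. The Ccn2 samples with TGFb lie above the untreated samples in every line, from 279 CPM in dm/- to 5373 CPM in ΔC/fl. The Axl samples of D164A/- lie below the Axl samples of every other line.

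**Figure D3:**
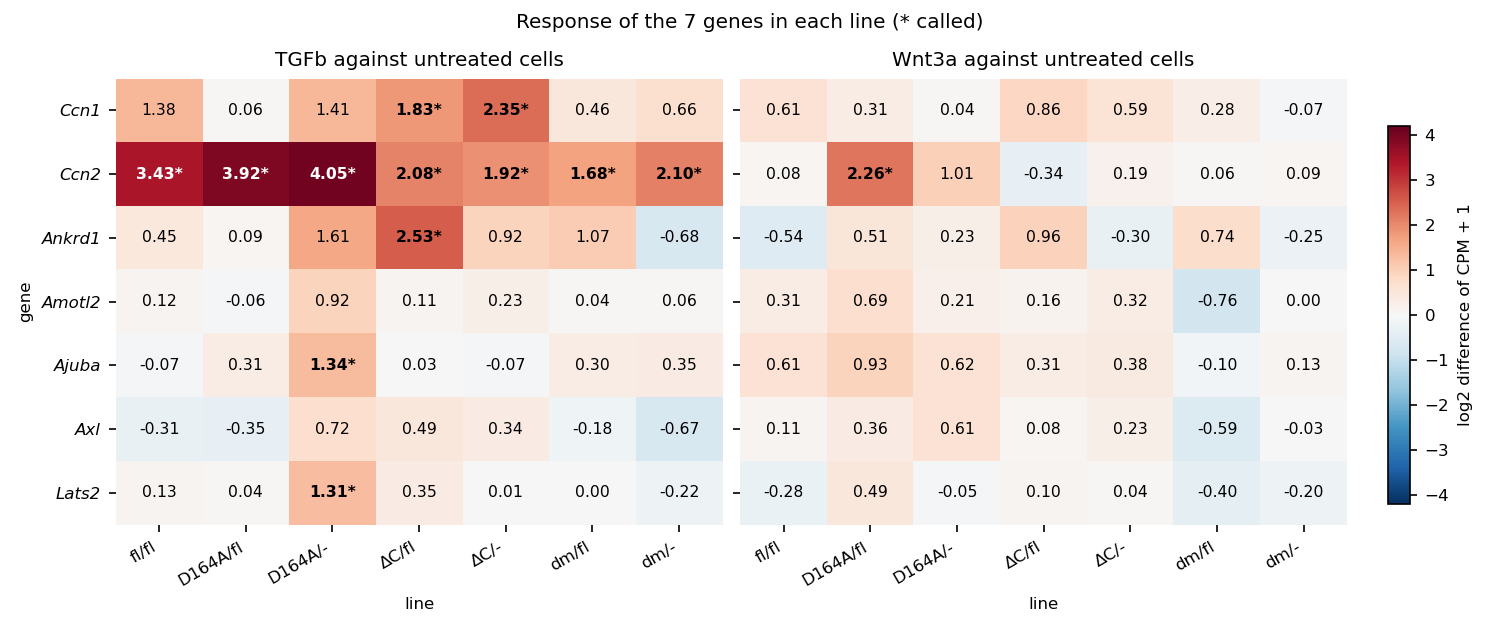
Log2 difference of each of the 7 genes in each line, with TGFb and with Wnt3a; stars mark called differences. With TGFb the called differences run from 1.31 for Lats2 in D164A/- to 4.05 for Ccn2 in D164A/-, and with Wnt3a the star belongs to Ccn2 in D164A/fl (2.26).

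With Wnt3a, Ccn2 rose 4.78-fold in D164A/fl, and no other combination of a gene and a line was called. That is 1 of 49 higher, against 0.559% of all combinations, and 0 of 49 lower, against 0.303%. In limma 0 of 49 were lower at an unadjusted p under 0.05, and edgeR called 0 lower. In D164A/fl, 2.85% of all genes were called higher with Wnt3a, against 0.153% in fl/fl, 0.407% in D164A/-, 0.131% in ΔC/fl, 0.0291% in ΔC/-, 0.342% in dm/fl and 0% in dm/-. Among the cell type markers in D164A/fl, Csf1r was called higher and Oxtr lower with Wnt3a, and their part in the Ccn2 result was not tested.

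Ccn2 in D164A/fl went from 129 and 121 CPM to 769 and 471 CPM with Wnt3a. Both treated samples were far above the untreated pair, replicate 1 more so than replicate 2. The log2 difference was 2.26 (SE 0.5, adjusted p = 0.00269). It was 1.9 (adjusted p = 0.0973) without D164A/fl +Wnt3a replicate 1, and with only the compared samples fitted the adjusted p was 0.0775. In D164A/- the samples went from 36.6 and 33.3 to 85.7 and 59.3 CPM without overlap, which did not pass (1.01, unadjusted p = 0.0514, adjusted p = 1). Treated Ccn2 samples read 222 and 245 CPM in fl/fl, 214 and 213 in ΔC/fl, 275 and 205 in ΔC/-, 141 and 189 in dm/fl, and 109 and 107 in dm/-, with differences between -0.34 and 0.19. In ΔC/fl they lay just below the untreated samples, and in the other 4 of these lines the groups overlapped. The test of whether the Ccn2 response to Wnt3a differs between lines had an unadjusted p of 0.0154 and an adjusted p of 0.352. By that test 0 of the 7 genes passed in limma, against 2.39% of all genes, with 1 of 7 at an unadjusted p under 0.05 and 0 by edgeR.

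Ajuba was slightly higher with Wnt3a in most lines. In D164A/fl it went from 79.1 and 84.4 to 163 and 151 CPM, and in fl/fl from 270 and 273 to 475 and 364 CPM. It read 74 and 109 CPM in D164A/-, 299 and 340.1 in ΔC/fl, 258 and 341 in ΔC/-, 201 and 232 in dm/fl, and 154 and 239 in dm/-. Treated samples lay above untreated ones in fl/fl, the D164A lines and the ΔC lines, and the groups overlapped in the dm lines. The difference in D164A/fl, 0.93 (SE 0.28, adjusted p = 0.0438), passed the adjusted p but not the minimum fold, and fl/fl had 0.61 (adjusted p = 0.33). Averaged over the lines it was 0.41 (SE 0.11, adjusted p = 0.0184), again below the minimum fold (1 of 7 higher at the adjusted p alone, against 2.21% of all genes). It did not pass after removal of the GC trend (adjusted p = 0.108), nor without D164A/- +Wnt3a replicate 2 (adjusted p = 0.0557).

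The remaining 5 genes did not pass with Wnt3a. Ccn1 read 591 and 878 CPM in fl/fl, 214 and 195 in D164A/fl, 189 and 205 in D164A/-, 255 and 529 in ΔC/fl, 124 and 329 in ΔC/-, 335 and 396 in dm/fl, and 104 and 150.4 in dm/-. The treated samples lay above the untreated ones in fl/fl, D164A/fl and ΔC/fl and overlapped them in the other lines, with differences between -0.07 in dm/- and 0.86 in ΔC/fl. Ankrd1 read 198 and 399 CPM in fl/fl, 114 and 64.6 in D164A/fl, 29.7 and 38 in D164A/-, 163 and 212 in ΔC/fl, 55.6 and 30.4 in ΔC/-, 178 and 174 in dm/fl, and 575 and 207 in dm/-. Its differences lay between -0.54 in fl/fl and 0.96 in ΔC/fl, and in ΔC/fl and dm/fl the treated samples lay above the untreated ones.

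Axl with Wnt3a read 711 and 817 CPM in fl/fl, 126 and 162 in D164A/fl, 15.6 and 57 in D164A/-, 1517 and 2499 in ΔC/fl, 962 and 2445 in ΔC/-, 1050.4 and 1239.5 in dm/fl, and 918 and 1602 in dm/-. Lats2 read 51.1 and 75.6 CPM in fl/fl, 27.3 and 21.3 in D164A/fl, 15.9 and 18.1 in D164A/-, 52.3 and 59.7 in ΔC/fl, 62.3 and 47.5 in ΔC/-, 52 and 37 in dm/fl, and 53.3 and 33.7 in dm/-. For both genes the treated samples lay above the untreated ones in D164A/fl and the groups overlapped in the other lines. The Axl differences lay between -0.59 and 0.61 and the Lats2 differences between -0.4 and 0.49. The lowest of each belongs to dm/fl, whose untreated samples stood apart. Without dm/fl -Wnt3a replicate 1 these values were -0.09 for Axl and -0.02 for Lats2. Without replicate 2 they were -1.1 and -0.78.

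Amotl2 with Wnt3a read 296 and 183 CPM in fl/fl, 133 and 125 in D164A/fl, 57.9 and 79.1 in D164A/-, 108 and 184 in ΔC/fl, 203 and 113 in ΔC/-, 185 and 147 in dm/fl, and 152 and 244 in dm/-. The treated samples lay above the untreated ones in D164A/fl and overlapped them elsewhere, with differences between -0.76 in dm/fl and 0.69 in D164A/fl. The dm/fl value depends on the untreated samples that stood apart: it was -0.76 with both (adjusted p = 0.328), 0.21 without dm/fl -Wnt3a replicate 1, and -1.74 (adjusted p = 0.0021, called) without replicate 2. The other 6 genes in dm/fl, and all 7 in dm/-, were called neither with nor without each of the samples that stood apart.

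Averaged over the lines, no gene of the 7 was called with Wnt3a (0.378% of all genes called higher and 0.116% lower). In limma 3 of 7 were higher and 0 lower at an unadjusted p under 0.05, and edgeR called 0. Beside Ajuba, the mean differences were 0.48 for Ccn2 (SE 0.19, adjusted p = 0.25), 0.37 for Ccn1 (SE 0.18, adjusted p = 0.456), 0.19 for Ankrd1, 0.13 for Amotl2, 0.11 for Axl and -0.04 for Lats2.

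Each deleted line, in which the mutant β-catenin is the only form left, was compared with its floxed counterpart. The deleted cells also went through exposure to Cre and sorting for GFP. Without a deleted fl/fl line, these steps and the loss of the floxed allele cannot be told apart. In untreated cells of the TGFb experiment, D164A/- had lower levels than D164A/fl for all 7 genes, and 5 of them were called, Axl, Ankrd1, Amotl2, Ajuba and Lats2 (8.41% of all genes called lower). None was called higher (8.06% of all genes), 0 were higher at an unadjusted p under 0.05 in limma, and edgeR called 0 higher. The median difference of the 7 genes was -1.31, against 0 over all genes. Some epithelial markers differed between these lines too, over all 8 samples of each. Krt17 ran from 42.3 to 348 CPM in D164A/fl and from 0.114 to 2.37 CPM in D164A/-, and the median of Cldn4 was 116 against 8.07 CPM and that of Krt5 152 against 10.3 CPM. Krt7, Krt14, Krt18, Cldn3, Cldn7 and Trp63 also had lower medians in D164A/-. Epcam (589 against 511 CPM) and Cdh1 (873 against 824 CPM) differed little. Oxtr (4.23 against 58.7 CPM) and Krt8 (273 against 355 CPM) had higher medians in D164A/-. Their part in the lower levels of the 7 genes was not tested.

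Axl fell by 5.68 on the log2 scale between D164A/fl and D164A/- (SE 0.5, adjusted p = 1.78e-10), from 184 and 158 CPM to 1.31 and 3.85 CPM. Ankrd1 fell by 3.61 (SE 0.64, adjusted p = 5.57e-05), from 67.1 and 82.7 to 1.62 and 13.7 CPM. Amotl2 fell by 2.24 (SE 0.42, adjusted p = 0.000136), Ajuba by 1.31 (SE 0.28, adjusted p = 0.000609) and Lats2 by 1.11 (SE 0.24, adjusted p = 0.000574). For all 7 genes the samples of D164A/- lay below those of D164A/fl without overlap. Ccn1 (-1.2, adjusted p = 0.0727) and Ccn2 (-1.06, adjusted p = 0.14) did not pass. Ajuba was at -0.86 (adjusted p = 0.0763) without D164A/- -TGFb replicate 1 and at -0.97 (adjusted p = 0.0422) without D164A/fl -TGFb replicate 2, both short of a call. Ankrd1 stayed called at -2.36 (adjusted p = 0.0193) without D164A/- -TGFb replicate 1 and at -4.85 without replicate 2.

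In the Wnt3a experiment the same pair of lines gave 2 calls, both lower (2.36% of all genes). The median difference of the 7 genes was smaller there, -0.49 against -0.02 over all genes, and 2 of the 7 were above 0. Axl fell by 2.47 (SE 0.5, adjusted p = 0.00152), from 109.7 and 113 CPM to 10.6 and 34.5 CPM, and without D164A/- -Wnt3a replicate 1 the difference was -1.66 (adjusted p = 0.204). Ccn2 fell by 1.81 (adjusted p = 0.0282), from 129 and 121 CPM to 36.6 and 33.3 CPM. The Ccn2 call was lost without each of its 4 samples in turn, D164A/fl -Wnt3a and D164A/- -Wnt3a replicates 1 and 2 (-1.87 to -1.75, adjusted p = 0.135 to 0.161). With only the compared samples fitted, the adjusted p was 0.336 for Axl and 0.193 for Ccn2. None of the 7 was called higher (0.843% of all genes), with 0 at an unadjusted p under 0.05 in limma and 0 by edgeR.

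Between dm/fl and dm/- in the TGFb experiment, Ccn2 fell by 1.47 (adjusted p = 0.0314), from 210.4 and 215 to 73.3 and 79.2 CPM, and Ccn1 fell by 1.34 (adjusted p = 0.0425), from 269.8 and 279 to 91 and 127 CPM. The samples did not overlap for either gene, and 10.1% of all genes were called lower. Each of these calls was lost without any of its 4 samples, dm/fl -TGFb and dm/- -TGFb replicates 1 and 2 (Ccn2 -1.52 to -1.41, adjusted p = 0.106 to 0.142, and Ccn1 -1.58 to -1.11, adjusted p = 0.0745 to 0.263). Without the filter on low values Ccn1 had an adjusted p of 0.0567. Ankrd1 went the other way, from 102 and 128 CPM to 318 and 354 CPM, and did not pass in the TGFb experiment (1.54, adjusted p = 0.0848). None of the 7 was called higher there (5.99% of all genes), with 1 of 7 at an unadjusted p under 0.05 in limma and 0 by edgeR. Markers differed between these samples too. The 8 fibroblast markers summed to 554 and 332 CPM in dm/fl and 7.06 and 8.06 in dm/-. The 6 leukocyte markers summed to 339.5 and 436 against 88.1 and 77.8 CPM. That sum was mostly Csf1r in dm/fl (336 and 431 CPM) and mostly Cd68 in dm/- (62.2 and 55 CPM). Cd68 went the other way, as it reached at most 5.07 CPM in any dm/fl sample. The part of these markers in the dm differences of either experiment was not tested.

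In the Wnt3a experiment Ankrd1 was called higher in dm/- than in dm/fl (1.96, SE 0.64, adjusted p = 0.0244, against 7.78% of all genes), at 578 and 294 CPM against 85.1 and 129 CPM without overlap. This comparison uses the dm/fl -Wnt3a samples that stood apart. Without replicate 1 of them the Ankrd1 difference was 1.66 (adjusted p = 0.158), without replicate 2 it was 2.26 (adjusted p = 0.02, called), and without dm/- -Wnt3a replicate 1 it was 1.48 (adjusted p = 0.267). With only the compared samples fitted the adjusted p was 0.252. None of the 7 was called lower (8.77% of all genes), with 1 of 7 at an unadjusted p under 0.05 in limma and 0 by edgeR. Without dm/fl -Wnt3a replicate 2, Ccn1 (-1.57, adjusted p = 0.0283) and Amotl2 (-1.51, adjusted p = 0.00508) were called lower in dm/-.

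Between ΔC/fl and ΔC/- in the TGFb experiment, Ankrd1 fell by 1.79 (SE 0.64, adjusted p = 0.05, against 6.69% of all genes), from 150.3 and 141 CPM to 33.7 and 50.4 CPM without overlap. In the same samples the 8 fibroblast markers summed to 779 and 321 CPM in ΔC/fl and 9.98 and 9.5 CPM in ΔC/-, and the 8 basal markers to 302 and 584 against 34.7 and 36.5 CPM, and their part in this was not tested. The call was lost without each of its 4 samples, ΔC/fl -TGFb and ΔC/- -TGFb replicates 1 and 2 (-2.08 to -1.51, adjusted p = 0.0931 to 0.309). It was also lost with a pseudocount of 0.1 (adjusted p = 0.0646), without the filter on low values (0.0651), after scaling to total reads (0.0708) and by edgeR (0.0643). None was called higher in ΔC/- (5.32% of all genes), with 0 at an unadjusted p under 0.05 in limma and 0 by edgeR. For the Wnt3a experiment 0 of 7 were called between these lines by limma, against 3.79% of all genes higher and 4.38% lower, with 0 at an unadjusted p under 0.05 and 0 by edgeR.

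Whether the response itself differed between a deleted line and its floxed counterpart was tested as a difference of differences. The Lats2 response to TGFb was larger in D164A/- than in D164A/fl by 1.27 on the log2 scale (SE 0.33, adjusted p = 0.0398). D164A/fl stayed at 32.6 and 31 CPM untreated and 30.6 and 34.9 CPM with TGFb. D164A/- started lower, at a mean of 14.3 against 31.8 CPM untreated, and reached a like level with TGFb (36.7 against 32.7 CPM). This difference in response was the single call among 42 combinations of a gene, a pair of lines and a treatment, with 0.509% of all genes called higher in that comparison. Over the 3 pairs of lines, 2.51% of all combinations were called higher and 1.42% lower with TGFb, and 0.0751% higher and 0.288% lower with Wnt3a. By limma 0 of the 7 genes were called lower in any of these comparisons, with 0 lower at an unadjusted p under 0.05 and 0 by edgeR. For all 7 genes the response in D164A/- was above that in D164A/fl (median 1.06, against -0.01 over all genes), and 2 of the 7 had an unadjusted p under 0.05, against 964 of 13754 genes. With TGFb the medians were -0.14 for ΔC and 0.01 for dm, and with Wnt3a they were 0.07 for ΔC and 0.2 for dm. For D164A with Wnt3a the median was -0.32, against 0.03 over all genes. There 1 of the 7 genes was above 0, and 0 had an unadjusted p under 0.05, against 523 of 13754 genes. The Lats2 call was lost without each of its 8 samples, the D164A/fl and D164A/- samples of the TGFb experiment (1.17 to 1.37, adjusted p = 0.0694 to 0.246). It was also lost with a pseudocount of 0.1 (adjusted p = 0.0688), with the median of ratios (0.0652), with total reads (0.0616) and by edgeR (0.202).

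Untreated cells of the TGFb experiment were compared with those of the Wnt3a experiment in each line. The experiments differ in days of culture, and time and experiment cannot be told apart. Called were 2 of 49 combinations, Amotl2 in D164A/fl, which was higher in the TGFb experiment, and Axl in D164A/-, which was lower there (1.15% of all combinations called higher and 1.16% lower). In D164A/- all 7 genes were lower in the TGFb experiment (median -0.73, against -0.03 over all genes), 3 of them at an unadjusted p under 0.05, against 927 of 13754 genes. The same untreated D164A/- samples stand behind its TGFb responses and its differences from D164A/fl. In D164A/fl, 6 of the 7 genes were higher in the TGFb experiment (median 0.61, against -0.05 over all genes). At an unadjusted p under 0.05 were 2 of the 7, against 3365 of 13754 genes. Those untreated D164A/fl samples also stand behind the differences between the D164A lines. Amotl2 in D164A/fl was at 171 and 249 CPM against 76.6 and 81.9 CPM (1.37, SE 0.42, adjusted p = 0.0287). Axl in D164A/- was at 1.31 and 3.85 CPM against 10.6 and 34.5 CPM (-2.6, SE 0.5, adjusted p = 0.00255). Neither pair of groups overlapped. The Amotl2 call was lost without each of its 4 samples, D164A/fl -TGFb and D164A/fl -Wnt3a replicates 1 and 2 (1.1 to 1.64, adjusted p = 0.0819 to 0.208). The Axl difference was -2.07 (adjusted p = 0.303) without D164A/- -TGFb replicate 1, -1.79 (adjusted p = 0.555) without D164A/- -Wnt3a replicate 2, and -3.41, still called, without D164A/- -Wnt3a replicate 1. With only the compared samples fitted the adjusted p was 0.14 for Amotl2 and 0.548 for Axl.

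Over the 28 condition means, Ajuba and Lats2 followed each other most closely among the 21 pairs of these genes (Pearson r of log2(CPM + 1) 0.87), followed by Ajuba and Axl (0.85) and Amotl2 and Lats2 (0.81). Ccn1 and Ccn2 had an r of 0.62 with each other. Ccn1 and Axl had the lowest r (0.19), with Ccn2 and Axl next (0.32). The conditions share lines and experiments, so these values are a description only. Among all genes tested, those most like each gene over the 28 conditions were Ncs1 (0.87) and Csrp2 (0.82) for Ccn1, and Fn1 (0.88) and Ctla2a (0.86) for Ccn2. For Ankrd1 they were Tmem185b (0.88) and Zyx (0.86), and for Axl Ccdc9b and Lhfp (both 0.93). For Amotl2 they were Ptp4a3 and Nfil3 (both 0.9), for Ajuba Pnp and Dhrs1 (both 0.91), and for Lats2 Ptk2b (0.92) and Samd4 (0.9).

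The 7 genes were set beside 16 other YAP/TEAD targets and 23 of 24 genes of the Hippo pathway and TEAD family (Vgll1 was too low to test). These lists too were chosen with earlier results of these data known. With TGFb, the other targets had 13 combinations of a gene and a line higher and 7 lower of 112 (11.6% and 6.25%), and the pathway genes 6 higher and 2 lower of 161 (3.73% and 1.24%), against 3.11% and 3.24% of all combinations of a gene and a line. Averaged over the lines, Nt5e, a cell surface nucleotidase, rose by 2.53 (SE 0.23, adjusted p = 1.02e-10) and Tgfb2, a TGFb ligand, fell by 1.09 (SE 0.2, adjusted p = 8.2e-05). Foxf2 (0.82), Rbms3 (0.72), Ptpn14 (-0.38) and Crim1 (-0.52) completed the largest mean shifts of that list and were below the minimum fold. Among pathway genes, Amot, the angiomotin related to Amotl2, rose by 1.44 (SE 0.12, adjusted p = 4.16e-11) and Tead2 by 1.08 (SE 0.16, adjusted p = 2.23e-06). Vgll3 (0.57, adjusted p = 0.0385), Tead4 (-0.56, 0.00573) and Wwc1 (-0.65, 0.00192) passed the adjusted p below the minimum fold, and Nf2 (-0.22, 0.109) did not pass. By line, Tead4 and Wwc1 were called lower in ΔC/fl and Vgll3 higher in D164A/-. In D164A/- the other targets had a median of 1.01, with Asap1, Fjx1 and Nt5e called higher and Tgfb2 lower. In dm/fl the median was -0.65, with Nt5e called higher and Ccdc80, Crim1, Ptpn14 and Tgfb2 lower.

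With Wnt3a, the other targets had 5 combinations higher and 1 lower of 112 (4.46% and 0.893%), against 0.559% and 0.303% of all combinations. The higher calls came from 2 of the 16 genes, Ccdc80 in fl/fl, D164A/fl, ΔC/fl and dm/fl and Fjx1 in D164A/fl. Ccdc80, a secreted matrix protein, rose by 1.83 averaged over the lines (SE 0.17, adjusted p = 2.92e-09), from line means of at most 2.01 CPM untreated to as much as 26.2 CPM with Wnt3a. The mean of Fjx1 (0.5, adjusted p = 0.0162) passed the adjusted p below the minimum fold. Those of Tgfb2 (0.65), Foxf2 (-0.08), F3 (-0.53) and Igfbp3 (-0.6) did not pass. Of the pathway genes 0 of 161 combinations were called by limma, with 4 higher and 5 lower at an unadjusted p under 0.05 and 0 by edgeR. Tead3 (0.23), Frmd6 (0.15), Tead4 (0.13), Lats1 (-0.22), Stk3 (-0.38) and Taok1 (-0.47) had the largest mean shifts in each direction.

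**Figure D4:**
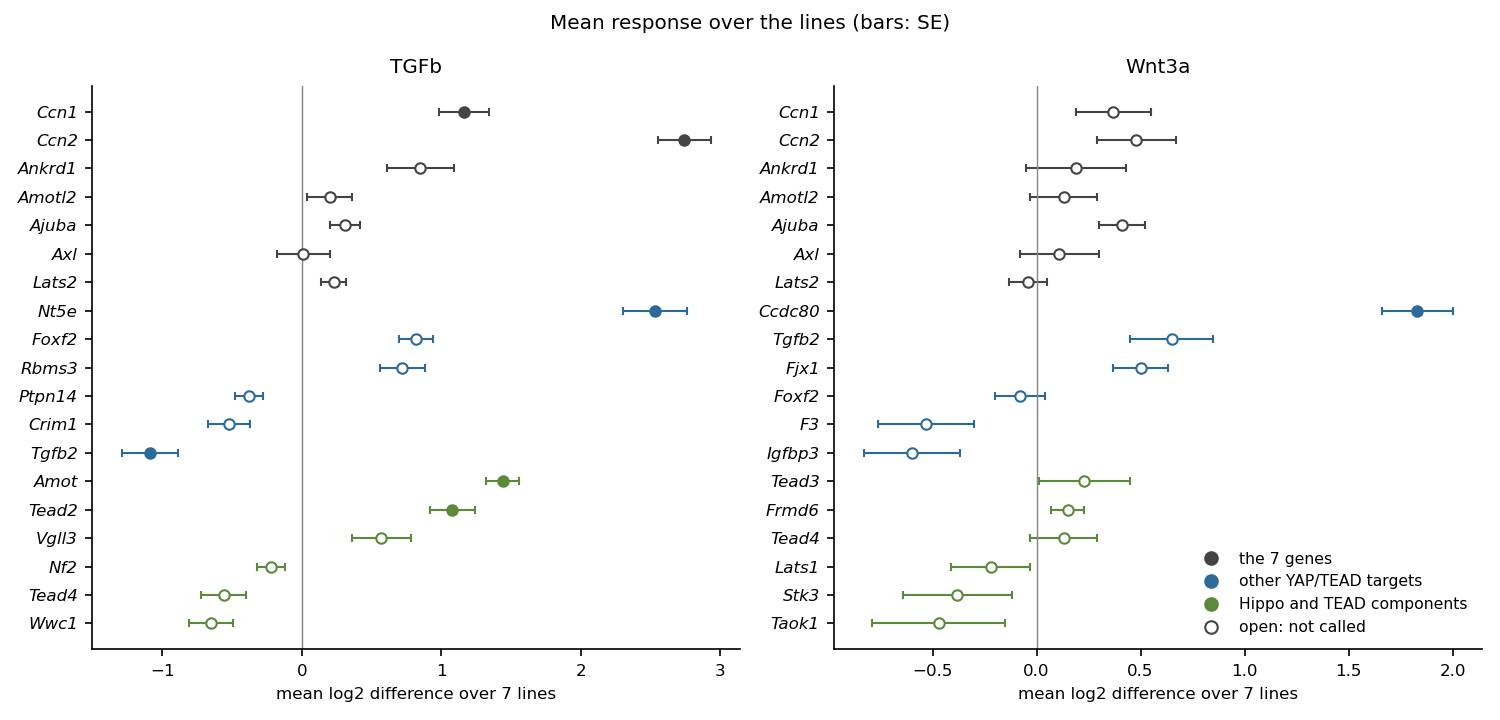
Mean log2 difference over the 7 lines with TGFb and with Wnt3a (bars are SE) for the 7 genes and for 6 named genes of each of the lists; filled points are called and open points are not. With TGFb, Ccn2 (2.74), Nt5e (2.53), Amot (1.44), Ccn1 (1.16) and Tead2 (1.08) are called higher and Tgfb2 (-1.09) lower, and with Wnt3a Ccdc80 (1.83) is called.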

How the data were processed

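The authors prepared stranded poly(A) libraries, read single ends, aligned them with STAR to mm10 and deposited 1 table of normalised signal (called CPM) for 56 samples, read here as counts scaled by an effective library size with factors of 0.809 to 1.14. Multiplied back, 100.0% of values were whole reads within 0.001. Of 20314 genes, 20261 matched a RefSeq symbol.

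The 13754 genes that reached 1 CPM in 2 or more samples were fitted as log2(CPM + 1) with limma 3.58.1 in R 4.3.3, with 28 coefficients, 1 per condition, and eBayes with a trend. P-values are Benjamini-Hochberg adjusted over these genes. Calls need an adjusted p no higher than 0.05 and a log2 difference of 1 or more in either direction, and for F tests the adjusted p alone. Steps were tested on simulated data.

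Alternatives were a pseudocount of 0.1, no filter, the median of ratios, edgeR 4.0.16 on whole reads, only the samples compared, a replicate block, no minimum fold, unadjusted p with a 1.5-fold change, removal of a GC trend (lowess span 0.3, 17820 genes with GC content, curve from genes of at least 10 CPM) and each sample left out. Scaling to total reads and a block with crossed numbers were added after seeing the data.

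Named genes are the 7 in every comparison, the 2 genes most correlated with each over the 28 conditions, the 3 largest mean increases and the 3 largest mean decreases per list and treatment, Ctnnb1, and the known responders Smad7, Pmepa1, Axin2 and Nkd1. The 7 genes and the lists were chosen with earlier results of these data known. Python 3.11.15 with pandas 2.3.3, numpy 2.4.6 and matplotlib 3.10.9 made tables and figures.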

Additional observations from a re-analysis of the deposited data

Results flagged for a closer look

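The Ccn2 response to TGFb differed between lines by the F test in limma (adjusted p = 0.0215, 0.0757 by edgeR), with log2 differences from 1.68 in dm/fl to 4.05 in D164A/-. The Lats2 response to TGFb differed between lines by the same test (adjusted p = 0.0136, 0.048 by edgeR), with the highest log2 difference in D164A/- (1.31) and the lowest in dm/- (-0.22). The Ccn2 test no longer passed without D164A/fl -TGFb replicate 1, D164A/- -TGFb replicate 1 or D164A/- +TGFb replicate 2. The Lats2 test no longer passed without D164A/- -TGFb replicate 1, D164A/- +TGFb replicate 1 or D164A/- +TGFb replicate 2. Lats2 means in D164A/- and D164A/fl were 14.3 and 31.8 CPM untreated and 36.7 and 32.7 CPM with TGFb. The Lats2 response was also larger in D164A/- than in D164A/fl by a log2 difference of 1.27 (adjusted p = 0.0398, against 0.509% of all genes called higher). This call was lost without each of its 8 samples in turn (adjusted p from 0.0694 to 0.246), with a pseudocount of 0.1 (0.0688), the median of ratios (0.0652) or total reads (0.0616), and by edgeR (0.202).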

How the results depend on the processing

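With 2 samples per condition, single samples decide many calls: of 29 called responses and differences between deleted and floxed lines or between experiments, 11 kept their call without each sample in turn, and 18 lost it without at least 1. Other pairs of lines are outside this count. Under the other settings 18 of 29 kept their call in all of them. The Ccn2 responses to TGFb in fl/fl, D164A/fl and D164A/- kept theirs throughout (log2 3.29 to 3.47, 3.77 to 3.94 and 3.99 to 4.09). The count of TGFb calls higher, 12, ran from 12 to 16 over the settings and from 9 to 13 with a sample left out, and the count between deleted and floxed lines, 11, from 9 to 15 and from 8 to 13. Same-numbered samples deviated together in most lines but not in all (r from -0.2 in ΔC/- to 0.66 in fl/fl with TGFb, and from -0.07 in dm/fl to 0.93 in ΔC/- with Wnt3a), so numbers were not taken as pairs. A value of 3 reads was 0.0917 to 0.146 CPM, and the lowest values of the 7 genes were 1.31 CPM for Axl and 1.62 CPM for Ankrd1.

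These values moved, and the cause was not tested. Calls higher with Wnt3a, 1, became 0 with only the compared samples, 2 with no minimum fold and 4 with unadjusted p and a 1.5-fold change, and ran from 0 to 1 with a sample left out, as did calls lower, 0. Mean TGFb calls, 2, became 4 with no minimum fold (2 to 3 with a sample left out), and mean Wnt3a calls, 0, became 1. Responses that differ between deleted and floxed lines, 1, became 0 with a pseudocount of 0.1, the median of ratios, total reads or edgeR, 2 with only the compared samples, 3 with the replicate block, 4 with crossed numbers and 2 with unadjusted p (0 to 2 with a sample left out). Calls between the experiments, 2, became 0 with only the compared samples and 7 with unadjusted p (1 to 4). TGFb responses that differ between lines, 2, became 6 with either block (all but Amotl2 with the replicate block), 1 with edgeR and 5 with unadjusted p (0 to 4). Wnt3a responses that differ between lines, 0, became 1 with either block or unadjusted p (0 to 1). The mean TGFb response of Ajuba, 0.31, was 0.17 (adjusted p = 0.187) with total reads. The mean TGFb response of Axl (0.01) was -0.13 with total reads, -0.05 without the GC trend and -0.09 to 0.1 with a sample left out. Mean Wnt3a responses with a sample left out ran from -0.01 to 0.27 for Amotl2, -0.02 to 0.24 for Axl and -0.1 to 0.01 for Lats2.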

Other observations

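Fibroblast and epithelial genes outside the 7 also moved with TGFb. Col1a1, a fibrillar collagen, was called higher in 6 of 7 lines, all but ΔC/-. Other fibroblast genes moved both ways, with Pdgfra called lower in ΔC/fl and dm/fl, Pdgfrb lower in dm/fl and higher in dm/-, and Col3a1 higher in ΔC/fl. Cdh1, the E-cadherin gene, was called lower in fl/fl and ΔC/fl, and Epcam and Cldn7, both epithelial surface genes, in ΔC/fl. Trp63, a basal transcription factor, was called lower in fl/fl, D164A/-, ΔC/fl and dm/fl. Acta2, smooth muscle actin, was called higher in ΔC/fl and dm/-, while of the basal keratins Krt5 was called lower in D164A/- and Krt14 in ΔC/fl. Cdh5, an endothelial cadherin, was called higher in fl/fl and dm/fl, Csf1r, a macrophage receptor, higher in ΔC/-, and Cd68, a macrophage protein, lower in ΔC/- and dm/-. Of all combinations of a gene and a line, 3.11% were called higher and 3.24% lower with TGFb. With Wnt3a the marker calls were Csf1r higher in D164A/fl, Cdh5 higher in dm/fl, and Oxtr, the oxytocin receptor, lower in D164A/fl and D164A/-, against 0.559% and 0.303% of all combinations.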
